A study of Homo sapiens with 24 samples.

Results

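Described here are 32 genes of glycolysis and of the response to low oxygen, read in LOUCY and JURKAT, established human lines of T-cell leukaemia (T-ALL). The genes were taken by symbol from a list of glycolytic enzymes, their regulators and targets of the transcription factor HIF1A, and all 32 symbols were among the 15862 genes of the deposited table. LOUCY stands for leukaemia arrested at an early T-cell precursor stage and JURKAT for a later stage, and each group rests on 1 line. The 24 RNA-seq libraries formed 5 groups: LOUCY given 250 nM JQ1 for 24 h (n = 4), LOUCY given 500 nM I-BET151 for 24 h (n = 4), LOUCY given the vehicle at 0.05% DMSO for 24 h (n = 4), untreated LOUCY (n = 6) and untreated JURKAT (n = 6). Both compounds displace BET bromodomain proteins from acetylated histones. All cells were grown in RPMI medium with serum, and their oxygen and glucose levels are not given in the sources. Each group was spread evenly over 2 experiments. Whether replicates within an experiment were separate cultures is not stated, so p-values measure how far these libraries vary, some of which may be technical.

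Glycolysis splits glucose into pyruvate in a chain of enzymes, each usually encoded by several paralogs. Hexokinase and phosphofructokinase are the controlled entry steps, and lactate dehydrogenase turns pyruvate into lactate, which regenerates the NAD that the chain needs. HIF1A is made continuously, and while oxygen is present prolyl hydroxylases such as EGLN1 mark the protein for destruction. When oxygen falls, HIF1A protein persists and switches on most glycolytic genes through DNA elements with the core ACGTG or GCGTG. It also switches on PDK1, the mitophagy receptor genes BNIP3 and BNIP3L, VEGFA and the gene of the prolyl hydroxylase itself. Much of HIF1A control acts on the protein, which RNA-seq does not measure. Proliferating T-ALL cells are known for high aerobic glycolysis.

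The sequence upstream of several members carries the core motif, and it is shown for genes on which the results turn. ANKRD37 and PFKFB3 were the members that rose with both inhibitors against either control, LDHA and LDHB moved in opposite directions, and BNIP3 was nearly silent in LOUCY. Each run is the 250 bases before the annotated start of the gene, 5′ to 3′ on the strand of the gene (RefSeq, GRCh38.p14). For LDHA and PFKFB3 the start whose window holds ACGTG is shown, and the window of their other start has no ACGTG and a single GCGTG. Capitals mark ACGTG read on either strand, so CACGTG appears where a palindrome holds overlapping matches.
ANKRD37, chr4:185396591-185396840, plus strand: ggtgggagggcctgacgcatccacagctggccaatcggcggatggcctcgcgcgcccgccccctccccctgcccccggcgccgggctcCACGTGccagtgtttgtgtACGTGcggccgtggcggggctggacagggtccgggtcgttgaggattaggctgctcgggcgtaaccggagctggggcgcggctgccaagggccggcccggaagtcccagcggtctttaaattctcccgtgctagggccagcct
PFKFB3, chr10:6202682-6202931, plus strand: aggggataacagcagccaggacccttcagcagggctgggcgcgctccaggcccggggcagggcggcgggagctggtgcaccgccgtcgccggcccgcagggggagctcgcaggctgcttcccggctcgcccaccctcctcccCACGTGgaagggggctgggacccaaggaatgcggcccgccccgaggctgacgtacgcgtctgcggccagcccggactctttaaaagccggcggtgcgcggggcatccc
LDHA, chr11:18394313-18394562, plus strand: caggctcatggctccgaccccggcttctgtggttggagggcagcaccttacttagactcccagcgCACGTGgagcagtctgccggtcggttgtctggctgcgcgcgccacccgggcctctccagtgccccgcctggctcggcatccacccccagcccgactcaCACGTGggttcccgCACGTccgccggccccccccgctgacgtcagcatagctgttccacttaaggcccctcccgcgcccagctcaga
LDHB, chr12:21657843-21658092, minus strand: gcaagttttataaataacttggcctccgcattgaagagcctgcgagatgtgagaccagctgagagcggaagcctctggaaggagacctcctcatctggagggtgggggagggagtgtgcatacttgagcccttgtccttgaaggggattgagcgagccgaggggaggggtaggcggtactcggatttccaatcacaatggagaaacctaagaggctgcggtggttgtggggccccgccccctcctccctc
BNIP3, chr10:131981924-131982173, minus strand: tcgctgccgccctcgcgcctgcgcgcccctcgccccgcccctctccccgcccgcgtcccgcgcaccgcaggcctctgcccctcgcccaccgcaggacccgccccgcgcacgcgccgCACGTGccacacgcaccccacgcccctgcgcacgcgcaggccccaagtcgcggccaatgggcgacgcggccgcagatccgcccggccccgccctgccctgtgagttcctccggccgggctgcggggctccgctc
Windows of 300 bases, which add the 50 bases after the start, were at hand for 29 of the 32 members, with BNIP3L, PFKFB2 and VEGFA not matched, and several genes had more than 1 start. ACGTG was found in 23 of 54 member windows (42.6%) and in 21.4% of all 35116 windows. GCGTG was in 21 of 54 member windows and in 36.5% of all windows. The palindrome CACGTG, which holds ACGTG and is also the E-box read by MYC and its partners, was in 8 of 54 member windows and in 7.26% of all. Of the genes printed above, ANKRD37, PFKFB3, LDHA and BNIP3 each have CACGTG and LDHB has no ACGTG in its window. A motif match is a description of the letters, not evidence of binding, and the printed starts are those of the annotation, not ones observed in these cells.

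Libraries held 4381134 to 7074198 reads in listed genes. All 7 T-lineage markers examined were at 1 RPKM or more in every group, with summed levels of 1167 to 1228 RPKM in JQ1, 1015 to 1309 in I-BET151, 1712 to 2111 in DMSO and 1983 to 2553 in untreated LOUCY, and 1462 to 1866 in JURKAT. Epithelial, erythroid and fibroblast markers summed to at most 1.37 RPKM in any library. The 3 markers of JURKAT summed to at most 1.07 RPKM in any LOUCY library and to 292 to 378 RPKM in JURKAT, and the 3 markers of LOUCY to at least 118 RPKM in LOUCY libraries and at most 0.580 RPKM in JURKAT. Of the 3 B-cell markers CD79A alone averaged above 1 RPKM, and the list summed to 199 to 296 RPKM in JQ1, 142 to 304 in I-BET151, 259 to 496 in DMSO and 331 to 584 in untreated LOUCY, and 11.3 to 22.1 in JURKAT. Of the monocyte markers LYZ alone did so, in LOUCY, and that list summed to 3.75 to 5.62 RPKM in JQ1, 3.91 to 5.91 in I-BET151, 13.8 to 20.1 in DMSO and 16.3 to 30.6 in untreated LOUCY, and 0.0423 to 0.521 in JURKAT. The T-lineage, B-cell and monocyte sums of untreated LOUCY lay above those of JURKAT. With either inhibitor the T-lineage and monocyte sums lay below those of DMSO. CD3D was the largest term of the T-lineage sum. CD3D, CD3G, CD7 and PTPRC averaged higher in untreated LOUCY than in JURKAT, and CD3E, CD247 and LCK (198 against 346 RPKM) lower. With either inhibitor PTPRC averaged above DMSO (143 with JQ1 and 158 with I-BET151 against 118 RPKM) and the other T-lineage markers below. The part of these markers in the results was not tested. HEXIM1, which is known to rise under BET inhibition, averaged 53.1 ± 2.72 RPKM in JQ1, 50.8 ± 7.05 in I-BET151 and 19.7 ± 2.21 in DMSO. Levels below are the authors' RPKM (reads scaled to gene length and library size) and differences are limma estimates on log2(RPKM + 1), a scale that understates changes of genes near 1 RPKM. Adjusted p-values are Benjamini-Hochberg values over all genes of a fit, with 0.05 as the threshold. In such bulk samples less RNA per cell and fewer expressing cells cannot be told apart.

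Members spanned 4 orders of magnitude per kilobase of gene. GAPDH, which oxidises glyceraldehyde phosphate, was the highest member in every group, with mean RPKM of 3625 in JQ1, 3052 in I-BET151, 2749 in DMSO, 3100.3 in untreated LOUCY and 2774 in JURKAT. LDHA, LDHB, ENO1, TPI1, PGK1, PKM and ALDOA filled the next 7 places in all 5 groups. Many neighbours in that block overlapped in range, but the leading gene after GAPDH changed. It was LDHA in the JQ1 and I-BET151 groups, and LDHB in DMSO, untreated LOUCY and JURKAT, with overlapping ranges of LDHA and LDHB in untreated LOUCY. In LOUCY the bottom places were held by PFKFB2, EGLN1 and BNIP3, whose means stayed under 1 RPKM in all 4 groups, while 0 members averaged under 1 RPKM in JURKAT. Reads from processed pseudogenes, of which GAPDH, PGK1, ENO1, PGAM1, TPI1, PKM, ALDOA and the LDH genes have several, could have been split between copies, so the levels of these genes are uncertain to that extent.

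**Figure D1:**
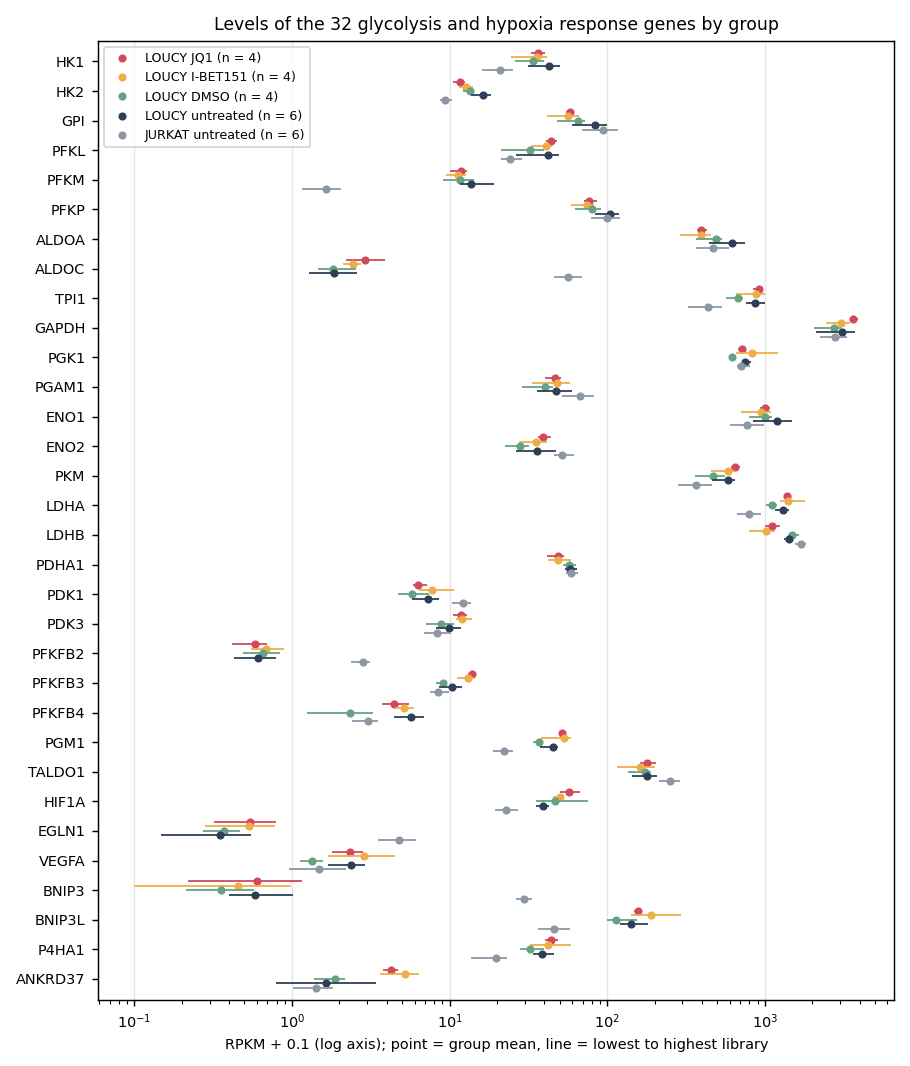
Levels of the 32 members, as RPKM + 0.1 on a log axis, with a point for each group mean and a line from the lowest to the highest library (n = 4 for JQ1, I-BET151 and DMSO, n = 6 for untreated LOUCY and untreated JURKAT). ALDOC, BNIP3, EGLN1 and PFKFB2 lie far to the right in JURKAT, and PFKM far to the left.

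The untreated lines were compared to ask how glycolysis and hypoxia genes differ between the T-ALL models without treatment. Most members differed. Of 32 tested, 17 were higher and 9 lower in LOUCY, and 6 (GPI, PFKP, GAPDH, PGK1, PDHA1 and ANKRD37) did not pass. The lower ones include PFKFB2, EGLN1 and BNIP3, which stayed under 1 RPKM in every untreated LOUCY library. They met the filter of 1 RPKM through JURKAT alone and could only be called lower. The lines differed across the transcriptome, with 73.1% of 11978 tested genes past the threshold (35.5% higher, 37.5% lower), so the share of members past it (26 of 32) was near the background. The libraries of the lines did not overlap, with LOUCY higher, for 11 members (24.1% of all genes) and, with LOUCY lower, for 7 (25.4%). The members' median log2 difference was 0.24 and that of all genes -0.017. In 6 sets of paralogs (aldolases, enolases, lactate dehydrogenases, pyruvate dehydrogenase kinases, PFKFB enzymes and BNIP3 receptors) members differed in opposite directions.

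Among the upper steps, 6 of 9 members were higher in LOUCY and 1 was lower. PFKM, the muscle-type phosphofructokinase subunit (chromosome 12, 48105139 to 48146404, GRCh38), stood at 11.6 to 19 (median 12.9) RPKM in LOUCY and 1.05 to 1.96 (median 1.53) in JURKAT. All LOUCY libraries exceeded all JURKAT libraries, and the log2 difference was 2.51 (SE 0.12, adjusted p = 2.62e-11). ALDOC, the brain-type aldolase (chromosome 17, 28573115 to 28577264), ran the other way at 1.18 to 2.51 (median 1.63) RPKM in LOUCY and 46.1 to 68.9 (median 54.7) in JURKAT. Its difference was -4.38 (SE 0.12, adjusted p = 4.83e-14), and the ranges were widely apart. TPI1, triose phosphate isomerase, at 873 ± 98.2 RPKM in LOUCY and 436 ± 84.5 in JURKAT, differed by 1.02 (SE 0.079, adjusted p = 1.28e-08). HK1, the housekeeping hexokinase, and HK2, its inducible relative, were both higher in LOUCY, by 1.00 and 0.73. PFKL, the liver-type phosphofructokinase subunit, and ALDOA, the main aldolase, were higher by 0.75 and 0.39, with ranges that overlapped between the lines.

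The lower steps and the fate of pyruvate split between the lines. LDHA, the isoform that favours lactate formation, ranged over 1159.7 to 1430.2 (median 1296) RPKM in LOUCY and 670.5 to 949 (median 774) in JURKAT, a difference of 0.73 (SE 0.063, adjusted p = 4.49e-08). LDHB, which favours the reverse reaction, ranged over 1317 to 1518 (median 1422) in LOUCY and 1549 to 1817 (median 1687) in JURKAT, a difference of -0.25 (SE 0.061, adjusted p = 0.00162). For both genes the 2 lines did not overlap, in opposite directions. PKM, pyruvate kinase, and ENO1, the main enolase, were higher in LOUCY by 0.67 and 0.62. ENO2, the neuronal enolase, and PGAM1, phosphoglycerate mutase, were lower, with differences of -0.54 and -0.48. The pyruvate dehydrogenase kinases, which inactivate pyruvate dehydrogenase, were also split. PDK1 averaged 7.2 ± 1.13 RPKM in LOUCY and 12 ± 1.15 in JURKAT (log2 difference -0.67, adjusted p = 2.84e-05), and PDK3 averaged 9.81 ± 1.34 in LOUCY and 8.24 ± 1.37 in JURKAT (log2 difference 0.23, adjusted p = 0.0164). PDK3 did not pass within either experiment alone, and LDHB did not pass within experiment 1 alone.

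The regulators and the branch enzymes also split between the lines. The PFKFB enzymes make and remove the allosteric activator of phosphofructokinase. PFKFB4 averaged 5.58 ± 1.03 RPKM in LOUCY and 2.95 ± 0.444 in JURKAT (log2 difference 0.73, adjusted p = 2.21e-05), whereas PFKFB2 spanned 0.331 to 0.688 (median 0.52) in LOUCY and 2.27 to 3.04 (median 2.77) in JURKAT (log2 difference -1.30). No p-value is given for PFKFB2, which met the filter through JURKAT alone and could only be called lower. PFKFB3, a hypoxia-inducible form, differed by 0.25 (adjusted p = 0.0213), but it was not past the threshold without LOUCY untreated replicate 1 of experiment 1 (adjusted p = 0.0565) or without JURKAT replicate 2 of experiment 1. PGM1, which links glycogen to glucose 6-phosphate, was 45.5 ± 4.97 RPKM in LOUCY and 21.9 ± 2.38 in JURKAT (log2 difference 1.02, adjusted p = 6.52e-08). TALDO1, transaldolase of the pentose phosphate branch, was lower in LOUCY, with a difference of -0.49.

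In the hypoxia response the lines differed most in the mitophagy receptors and in the oxygen sensor. BNIP3 (chromosome 10, 131966455 to 131982013) ranged over 0.298 to 0.919 (median 0.408) RPKM in LOUCY and 26.3 to 33.2 (median 29.5) in JURKAT, a difference of -4.38 (SE 0.11). Its paralog BNIP3L was at 121 to 181 (median 132) in LOUCY and 36.2 to 57.7 (median 43.2) in JURKAT, a difference of 1.60 (SE 0.10, adjusted p = 7.48e-10). Every LOUCY library was thus below every JURKAT library for BNIP3 and above for BNIP3L. EGLN1, the main prolyl hydroxylase of HIF1A (chromosome 1, 231363751 to 231425044), was near the floor in LOUCY at 0.0474 to 0.446 (median 0.213) RPKM, against 3.43 to 5.99 (median 4.79) in JURKAT (log2 difference -2.17). No p-value is given for BNIP3 and EGLN1, since both met the filter through JURKAT alone and could only be called lower. HIF1A itself was higher in LOUCY, at 39.1 ± 2.62 RPKM against 22.8 ± 3.45 in JURKAT (log2 difference 0.76, adjusted p = 3.01e-06). P4HA1, a collagen prolyl hydroxylase, and VEGFA, the angiogenic growth factor, were higher by 0.94 and 0.47. VEGFA did not pass within experiment 1 alone and had 16 to 37 reads per library in JURKAT. HIF targets stood on both sides, and ANKRD37, an ankyrin repeat gene induced by hypoxia, did not pass, at 0.695 to 3.29 RPKM in LOUCY and 0.92 to 1.73 in JURKAT (difference 0.086, 95% confidence interval -0.24 to 0.41).

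Shares within paralog sets put the exchange on one scale, since RPKM is already per length. Library by library, PFKM made up 8.67% ± 1.76 of summed phosphofructokinase RPKM in LOUCY and 1.28% ± 0.353 in JURKAT (SD, n = 6 each). ALDOC made up 0.288% ± 0.0694 of the aldolase sum in LOUCY and 11% ± 2.28 in JURKAT. BNIP3 made up 0.344% ± 0.149 of its sum with BNIP3L in LOUCY and 39.6% ± 3.62 in JURKAT. In both lines another paralog held most of each of these sums. LDHB made up 52.2% ± 1.79 of the lactate dehydrogenase sum in LOUCY and 68.3% ± 3.74 in JURKAT, and PDK1 42.3% ± 5.14 of its sum with PDK3 in LOUCY and 59.5% ± 2.35 in JURKAT. ENO2 made up 2.95% ± 0.591 of its sum with ENO1 in LOUCY and 6.36% ± 0.793 in JURKAT. Each of these 6 shares had no overlap between lines and a two-sided exact permutation p = 0.00216, the smallest possible here, which became 0.0115 after adjustment over 32 share tests. The HK2 share of the hexokinase sum, 27.7% ± 2.35 in LOUCY and 31.3% ± 4.43 in JURKAT, did not pass (exact permutation p = 0.102).

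**Figure D2:**
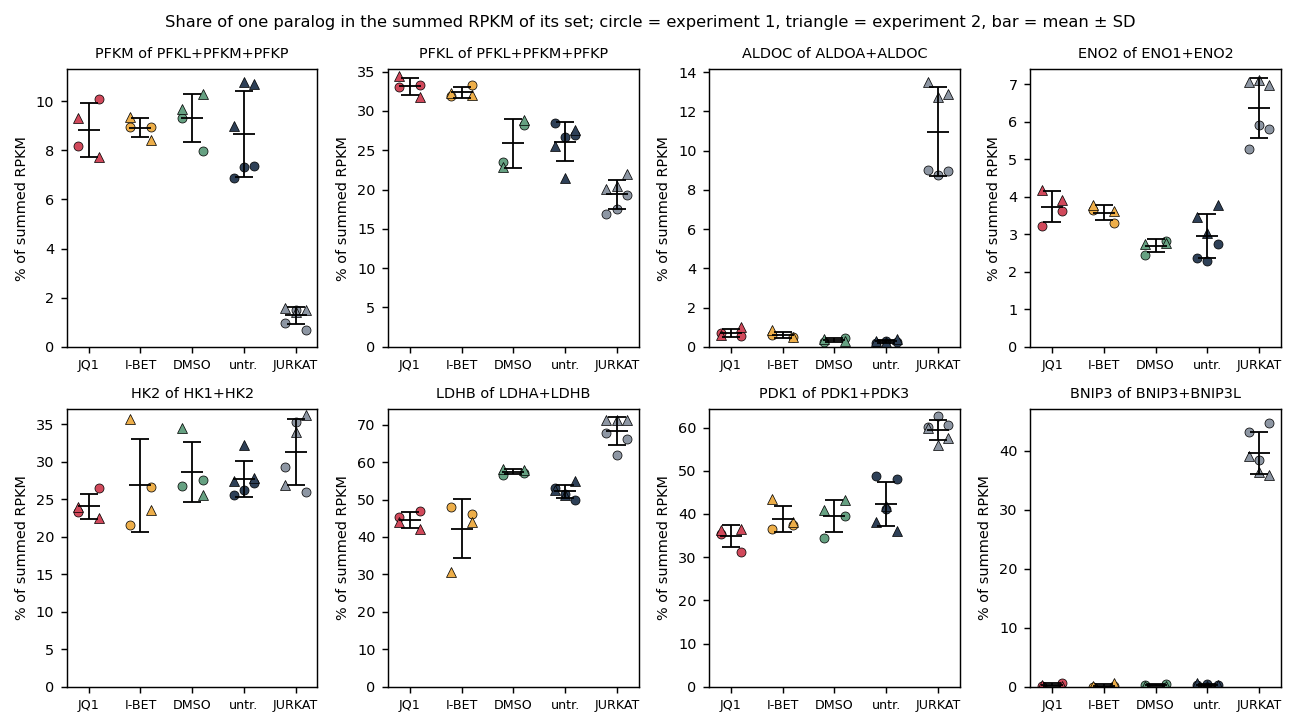
Share of 1 paralog in the summed RPKM of its set, in percent, for each library (circle for experiment 1, triangle for experiment 2), with bars at mean ± SD (n = 4 for JQ1, I-BET151 and DMSO, n = 6 for untreated LOUCY, marked untr., and for JURKAT). PFKM, ALDOC, BNIP3 and PDK1 separate LOUCY from JURKAT, and the LDHB share lies lower with both inhibitors than with DMSO.

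Genes of the same pathways outside the 32 also differed between lines in both directions. Of 34 other glycolysis, pyruvate and glucose transport genes tested, 10 were higher and 16 lower in LOUCY (median -0.20). Of 30 other HIF pathway and hypoxia genes tested, 18 were higher and 6 lower (median 0.59), against 35.5% and 37.5% of all genes. The lactate exporter gene SLC16A3 averaged 15.6 ± 3.12 RPKM in LOUCY and 0.515 ± 0.244 in JURKAT, while SLC16A1, another monocarboxylate carrier, averaged 46.6 ± 2.83 in LOUCY and 77.4 ± 5.68 in JURKAT. EPAS1, the HIF2 alpha subunit gene, averaged 16.1 ± 2.89 in LOUCY and 0.63 ± 0.199 in JURKAT, and the lipid droplet gene PLIN2 averaged 103 ± 16.6 in LOUCY and 0.628 ± 0.541 in JURKAT. EGLN3, another oxygen-sensing hydroxylase, was low in LOUCY as EGLN1 was, at 0.154 ± 0.149 against 2.82 ± 0.338 in JURKAT. The hexokinase-related HKDC1 averaged 0.295 ± 0.161 in LOUCY and 7.27 ± 1.13 in JURKAT. All 6 of these differences were past the threshold. All of these genes but SLC16A1 averaged under 1 RPKM in the lower line. They met the filter mainly through the line where they were high, so the direction of their calls was largely set beforehand.

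Vehicle-treated LOUCY was compared with untreated LOUCY to give the background of the inhibitor comparisons. Only 1 of the 29 tested members passed, and it fell. PFKFB2, EGLN1 and BNIP3 were below the filter of 1 RPKM in at least 4 libraries of the LOUCY fit. PFKFB4 was at 2.17, 3.17, 1.15 and 2.46 RPKM in the 4 DMSO libraries and 4.33 to 6.78 (median 5.57) in untreated ones. The groups did not overlap, and the log2 difference was -1.05 (SE 0.16, adjusted p = 0.00718). Of all 11411 genes tested 0.175% passed (0.0263% higher, 0.149% lower), and 1100 had an unadjusted p under 0.05.

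The members that did not pass lay mostly below 0. DMSO and untreated libraries did not overlap, with DMSO lower, for 4 members (2.05% of all genes). The log2 difference was under 0 for 26 of 29 members (all but LDHB, HIF1A and ANKRD37), against 56% of all genes, and 15 of 29 had an unadjusted p under 0.05, against 9.64% of all genes. Their median was -0.26 and that of all genes -0.024. VEGFA was at 1.19, 1.23, 1.03 and 1.48 RPKM in DMSO and 1.6 to 2.82 (median 2.29) in untreated cells, without overlap, at -0.55 (adjusted p = 0.116). TPI1 was at 685, 709, 566 and 729 in DMSO and 756 to 1003 (median 888) in untreated cells, also without overlap, at -0.38 (adjusted p = 0.162). Within experiment 1 alone ENO1, HK1, TPI1, ALDOA, GPI and PFKFB4 were past the threshold and lower in DMSO. The count of all genes called in that fit is in the closing section, and their share is not given here. Within experiment 2 alone 0 members passed, and 0 of all genes. Of 29 members, 0 had a difference that changed between the experiments past the threshold (interaction term). The LDHB share of lactate dehydrogenase was 57.4% ± 0.708 in DMSO and 52.2% ± 1.79 in untreated LOUCY (exact permutation p = 0.00476, adjusted 0.019).

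The inhibitors were compared with DMSO to ask what BET inhibition does to these genes over 24 h. With 250 nM JQ1, 14 of 29 members rose and 2 fell, against 10.1% of all 11411 genes higher and 15.9% lower (26% in either direction). With 500 nM I-BET151, 10 members rose and 2 fell, against 10.3% higher and 15.9% lower (26.3% in either direction). Ranges did not overlap, with JQ1 higher, for 13 members (12.2% of all genes) and lower for 1 (16.4%), and with I-BET151 higher for 7 (7.91%) and lower for 1 (13.1%). The members' medians were 0.37 with JQ1 and 0.32 with I-BET151, and those of all genes -0.010 and 0.00041. Both comparisons rest on the same 4 DMSO libraries, in which most members were low. TPI1, LDHA, PDK3, PFKFB3, PFKFB4, PGM1, VEGFA, BNIP3L and ANKRD37 rose with both inhibitors, ALDOC, GAPDH, ENO2, PKM and P4HA1 passed with JQ1, and PGK1 with I-BET151. LDHB and PDHA1 fell with both, and 12 (HK1, HK2, GPI, PFKL, PFKM, PFKP, ALDOA, PGAM1, ENO1, PDK1, TALDO1 and HIF1A) did not pass with either.

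**Figure D3:**
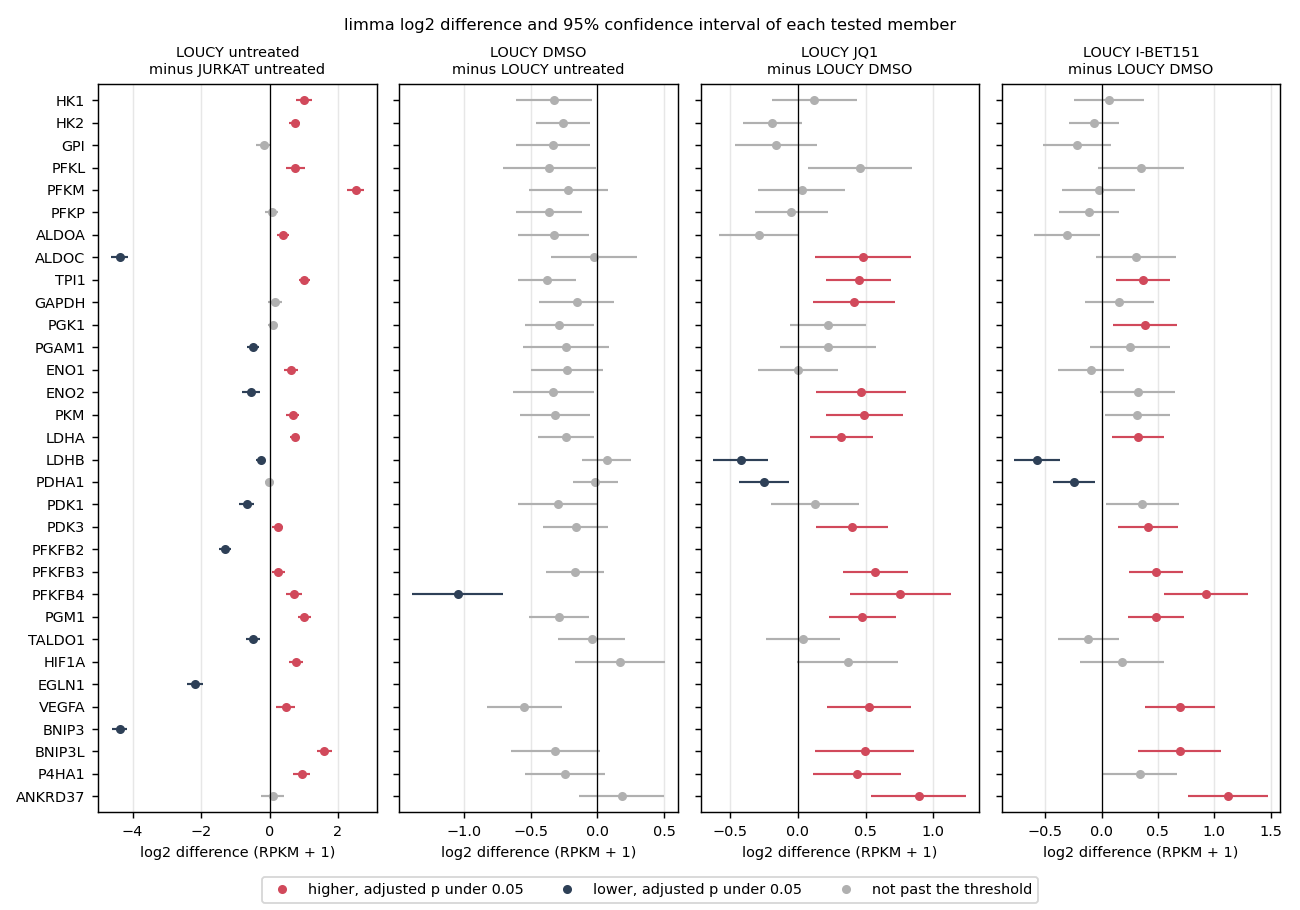
Estimated log2 difference of each tested member, on the log2(RPKM + 1) scale, with its 95% confidence interval in 4 comparisons; red marks members higher and dark blue members lower at an adjusted p under 0.05, and grey those that did not pass. Most members lie left of 0 for DMSO minus untreated and right of 0 for either inhibitor minus DMSO, with LDHB on the opposite side each time; 7 members lie left of 0 with JQ1 and 9 with I-BET151.

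Among hypoxia response genes, 4 of the 5 tested rose with JQ1 and 3 with I-BET151. ANKRD37 (chromosome 4, 185396021 to 185400628) had 4.58, 4.11, 4.2 and 3.69 RPKM in the JQ1 libraries, 6.27, 6.07, 3.5 and 4.63 with I-BET151 and 1.97, 2.08, 1.28 and 1.8 with DMSO. Every inhibitor library exceeded every DMSO library, and the difference was 0.89 with JQ1 (SE 0.17, adjusted p = 0.000584) and 1.12 with I-BET151 (SE 0.17, adjusted p = 6.99e-05). It was the member with the largest difference in both comparisons and passed within each experiment alone. Its values rest on few reads per library, 16 to 22 with JQ1, 19 to 32 with I-BET151 and 8 to 10 with DMSO. Counting error is therefore not small for this gene. VEGFA (chromosome 6, 43770184 to 43786487) had 1.7, 1.83, 2.72 and 2.74 RPKM with JQ1, 1.94, 1.6, 4.42 and 3.05 with I-BET151 and 1.19, 1.23, 1.03 and 1.48 with DMSO. Its groups also did not overlap, and the differences were 0.53 with JQ1 (adjusted p = 0.0126) and 0.69 with I-BET151 (adjusted p = 0.00188). BNIP3L had 149, 162, 164 and 157 with JQ1, 141, 168, 295 and 152 with I-BET151 and 101, 99.3, 154 and 101 with DMSO, and the differences were 0.49 with JQ1 (adjusted p = 0.0432) and 0.69 with I-BET151 (adjusted p = 0.00646). In each of these groups the highest BNIP3L value was replicate 1 of experiment 2, and the DMSO value lay within the range of both inhibitors. P4HA1 differed by 0.44 with JQ1 (adjusted p = 0.0458) and 0.34 with I-BET151 (adjusted p = 0.121). EGLN1 and BNIP3 stayed low, at 0.219 to 0.698 and 0.119 to 1.06 RPKM with JQ1, 0.18 to 0.679 and 0 to 0.883 with I-BET151, and 0.173 to 0.368 and 0.114 to 0.475 with DMSO.

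The HIF1A comparison depended on 1 library. It had 61.6, 67, 51.3 and 49.8 RPKM with JQ1, 50.9, 50.7, 53.4 and 45.6 with I-BET151 and 38, 37.1, 75.2 and 35.1 with DMSO, where the high value was replicate 1 of experiment 2. With all libraries the differences were 0.37 with JQ1 (adjusted p = 0.143) and 0.18 with I-BET151 (adjusted p = 0.488). Without that DMSO library they were 0.65 (adjusted p = 6.9e-05) with JQ1 and 0.46 (adjusted p = 0.00149) with I-BET151. Against untreated LOUCY, at 35.1 to 42.4 RPKM, JQ1 differed by 0.54 (adjusted p = 0.0151) and I-BET151 by 0.35 (adjusted p = 0.101). The DMSO library was 1 of the 3 with the steepest fall of levels with the GC content of the gene, with a slope of -0.299 in log2 for each 10 points of GC content. The others were I-BET151 replicate 1 of experiment 2 at -0.331 and untreated LOUCY replicate 2 of experiment 2 at -0.242, and the remaining 15 LOUCY libraries lay between -0.132 and 0.163. Across the 29 tested members, the deviation of the DMSO library from the other 3 had a Pearson correlation of -0.83 (Spearman -0.74) with GC content, and that of the I-BET151 library -0.54 (Spearman -0.36). Genes are not independent replicates, and these are descriptions of single libraries. HIF1A had the lowest GC content of the members, 36.4%.

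**Figure D4:**
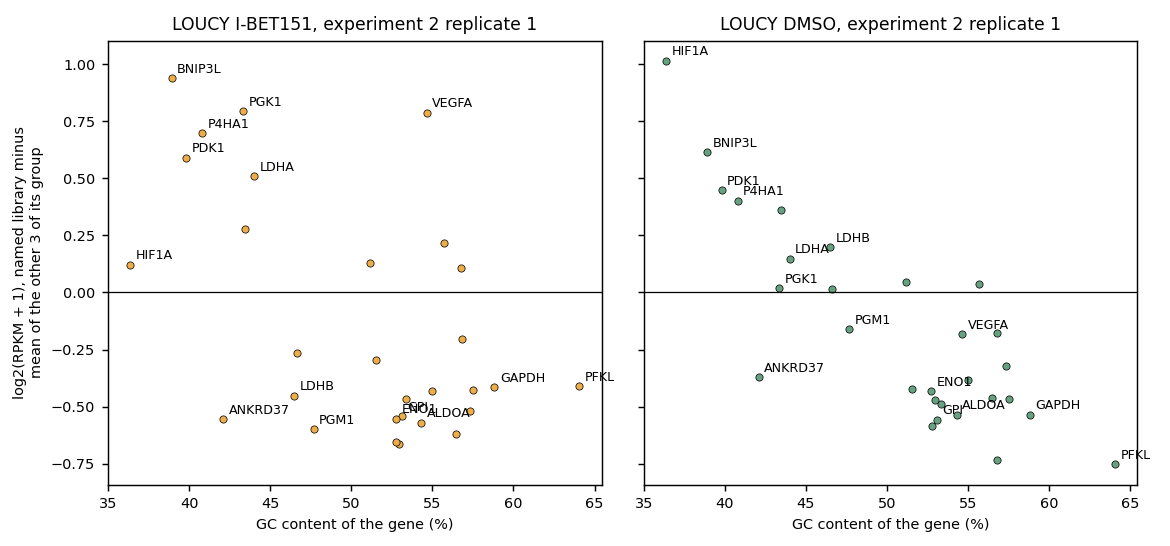
Deviation of replicate 1 of experiment 2 from the mean of the other 3 libraries of its group, in log2(RPKM + 1), against the GC content of the gene in percent, for I-BET151 (left) and DMSO (right); each point is 1 of the 29 members tested. For DMSO the most AT-rich members, HIF1A and BNIP3L, lie highest and PFKL (64.1% GC) lowest; for I-BET151 the relation is looser, with VEGFA (54.6% GC) above 0, and ANKRD37 (42.1% GC) lies below 0 in both.

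Both tested regulators of phosphofructokinase rose. PFKFB4 (chromosome 3, 48517684 to 48562015) had 3.68, 4.79, 5.4 and 3.64 RPKM with JQ1, 4.51, 5.32, 4.39 and 5.84 with I-BET151 and 2.17, 3.17, 1.15 and 2.46 with DMSO. The inhibitor libraries all exceeded the DMSO libraries, by 0.76 with JQ1 (SE 0.18, adjusted p = 0.00402) and 0.93 with I-BET151 (SE 0.18, adjusted p = 0.000803), but the untreated libraries (4.33 to 6.78 RPKM) overlapped those of the inhibitors. PFKFB3 (chromosome 10, 6144934 to 6254644) had 13.5, 14.4, 12.9 and 14.3 with JQ1, 13.7, 11, 14.5 and 12.4 with I-BET151 and 9.43, 8.09, 9.14 and 9.14 with DMSO, and the differences were 0.57 with JQ1 (adjusted p = 0.00108) and 0.48 with I-BET151 (adjusted p = 0.00445), again without overlap. PFKFB3 passed against untreated LOUCY as well, at 8.48 to 11.9 RPKM, a range that 1 I-BET151 library overlapped. PGM1 rose by 0.48 with JQ1 and 0.48 with I-BET151, with 53.9, 51.2, 52.2 and 49.6 RPKM in JQ1, 56.9, 57.3, 37.8 and 59.3 in I-BET151 and 37.1, 39.1, 33.9 and 37.8 in DMSO, where 1 low I-BET151 library overlapped the DMSO range. TALDO1 did not pass with either, with differences of 0.04 with JQ1 (adjusted p = 0.857) and -0.12 with I-BET151 (adjusted p = 0.553).

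**Figure D5:**
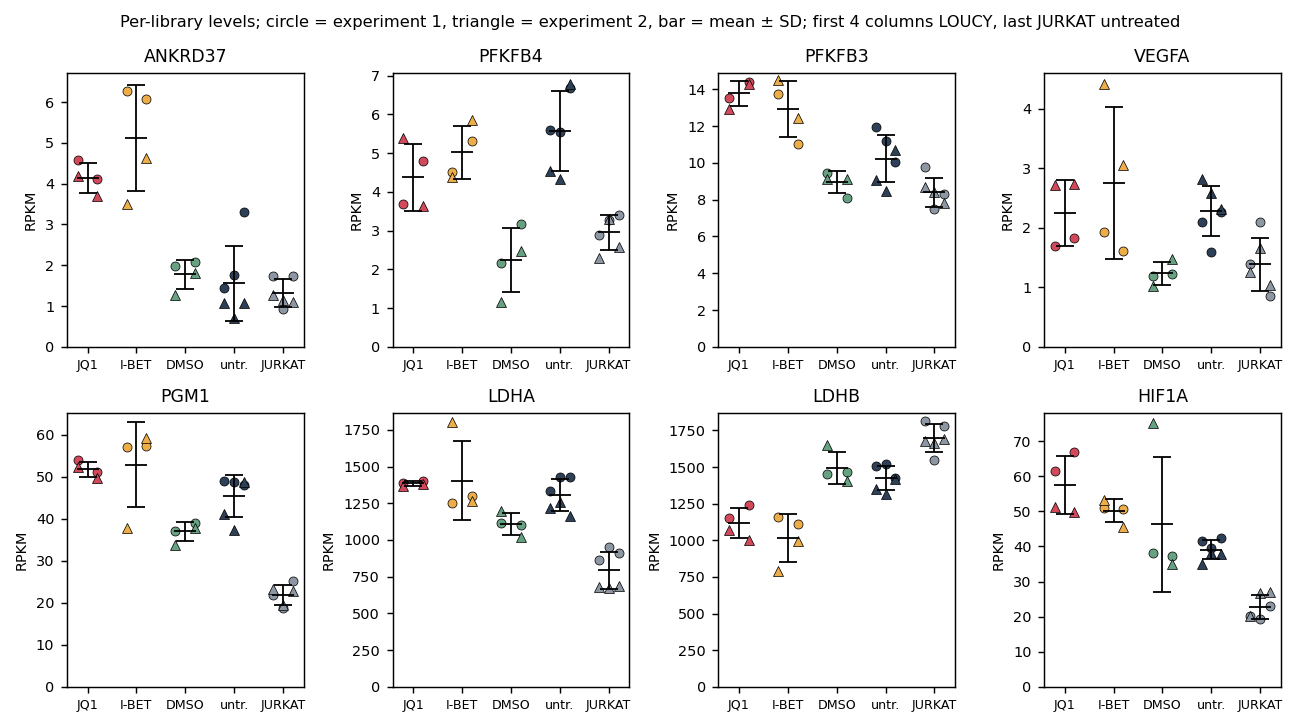
RPKM of 8 members in every library (circle for experiment 1, triangle for experiment 2), with bars at mean ± SD (n = 4 for JQ1, I-BET151 and DMSO, n = 6 for untreated LOUCY, marked untr., and for JURKAT). The inhibitor means of ANKRD37, PFKFB3, PGM1, LDHA and HIF1A are above and those of LDHB below the means of both DMSO and untreated LOUCY. Among the genes above, only ANKRD37 and PFKFB3 passed with both inhibitors against both controls. PFKFB4 and VEGFA are low with DMSO alone among the LOUCY groups, and a single DMSO library is high for HIF1A.

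The lactate dehydrogenase genes moved in opposite directions. LDHA had 1391, 1403, 1366 and 1379 RPKM with JQ1, 1249.5, 1296, 1806 and 1263 with I-BET151 and 1115, 1105, 1196 and 1019.7 with DMSO, and rose by 0.32 with JQ1 (adjusted p = 0.0372) and 0.32 with I-BET151 (adjusted p = 0.0356). LDHB had 1149.6, 1242, 1071 and 1003 with JQ1, 1159, 1109, 794 and 996 with I-BET151 and 1452, 1468, 1654 and 1403 with DMSO, and fell, with differences of -0.42 with JQ1 (SE 0.10, adjusted p = 0.00317) and -0.57 with I-BET151 (SE 0.10, adjusted p = 0.000238). For both genes the inhibitor and DMSO libraries did not overlap. The LDHB share of the sum was 44.6% ± 2.05 with JQ1, 42.2% ± 7.96 with I-BET151 and 57.4% ± 0.708 with DMSO (SD, n = 4 each). I-BET151 replicate 1 of experiment 2, a library of steep GC slope, had 30.5%, and the other I-BET151 libraries 44.1 to 48.1%. Each share test gave an exact permutation p = 0.0286, the smallest that 4 against 4 allows, and 0.0571 after adjustment over 32 share tests, which does not pass. The shift against DMSO was -10.7 points in experiment 1 and -15 in experiment 2 with JQ1, and -9.69 points in experiment 1 and -20.7 in experiment 2 with I-BET151. PDHA1, the alpha subunit of pyruvate dehydrogenase, fell by 0.25 with JQ1 (adjusted p = 0.0431) and by 0.24 with I-BET151 (adjusted p = 0.0483). PDK3 rose by 0.40 with JQ1 and 0.41 with I-BET151, and PDK1 did not pass, with differences of 0.13 with JQ1 (adjusted p = 0.597) and 0.36 with I-BET151 (adjusted p = 0.0943).

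The core enzymes moved unevenly. TPI1 had 950.4, 919.9, 949.9 and 841 RPKM with JQ1, 928, 909, 659 and 1002 with I-BET151 and 685, 709, 566 and 729 with DMSO, and the differences were 0.45 with JQ1 (adjusted p = 0.0064) and 0.37 with I-BET151 (adjusted p = 0.0218). PKM had 695, 610.5, 655 and 648 with JQ1 and 478, 476, 359 and 562 with DMSO, without overlap (log2 difference 0.49, adjusted p = 0.012), and 646, 591, 453 and 642 with I-BET151 (log2 difference 0.32, adjusted p = 0.0967). GAPDH passed with JQ1 (log2 difference 0.41, adjusted p = 0.0428) and not with I-BET151 (log2 difference 0.15, adjusted p = 0.472). The difference between the inhibitors for GAPDH was itself 0.26 (adjusted p = 0.964). Of the upper steps, HK1, HK2, GPI, PFKL, PFKM, PFKP and ALDOA passed with neither inhibitor. ALDOA lay below DMSO, at -0.29 with JQ1 (adjusted p = 0.141) and -0.30 with I-BET151 (adjusted p = 0.118), and passed without the 3 libraries of steep GC slope (JQ1 -0.40, adjusted p = 0.00575; I-BET151 -0.30, adjusted p = 0.0471). PFKL made up 33.1% ± 1.1 of phosphofructokinase with JQ1, 32.4% ± 0.671 with I-BET151 and 25.9% ± 3.11 with DMSO, without overlap in either comparison (exact permutation p = 0.0286 for each, adjusted 0.0571). The ENO2 share of enolase was 3.74% ± 0.41 with JQ1, 3.58% ± 0.207 with I-BET151 and 2.69% ± 0.174 with DMSO, with the same p-values.

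Several calls lay near the threshold and were lost when each of the 18 LOUCY libraries, those outside the contrast included, was left out in turn. The number of these 18 fits in which a call was lost is given with the highest adjusted p. With JQ1 calls were lost in 4 fits for ENO2 (up to 0.115, without JQ1 experiment 2 replicate 1), 5 fits for PDK3 (up to 0.102, without DMSO experiment 2 replicate 2) and 6 fits for ALDOC (up to 0.16, without JQ1 experiment 2 replicate 2). They were lost in 7 fits for LDHA (up to 0.096, without DMSO experiment 2 replicate 2) and 8 fits for GAPDH (up to 0.135, without DMSO experiment 2 replicate 1). JQ1 calls were lost most often in 12 fits for BNIP3L (up to 0.13, without DMSO experiment 2 replicate 2), 12 fits for P4HA1 (up to 0.132, without DMSO experiment 1 replicate 2) and 12 fits for PDHA1 (up to 0.133, without JQ1 experiment 2 replicate 2). With I-BET151 calls were lost in 3 fits for TPI1 (up to 0.0777, without I-BET151 experiment 2 replicate 2), 3 fits for PDK3 (up to 0.0904, without DMSO experiment 2 replicate 2) and 4 fits for LDHA (up to 0.0987, without DMSO experiment 2 replicate 2). They were lost in 10 fits for PGK1 (up to 0.0962, without DMSO experiment 2 replicate 2) and 15 fits for PDHA1 (up to 0.11, without DMSO experiment 2 replicate 1). PGK1 with I-BET151 was 0.39 in all libraries and 0.19 once the 3 libraries of steep GC slope were left out, and VEGFA was 0.69 in all and 0.45 without them. ANKRD37, PFKFB3, PFKFB4, PGM1, VEGFA and LDHB kept their calls for both inhibitors in all 18 leave-one-out fits. In experiment 2 alone 1 member was past the threshold and higher with JQ1 (ANKRD37), 2 were with I-BET151 (ANKRD37 and VEGFA), and 0 were lower. Far fewer of all genes passed there as well (counts in the closing section), so this loss of calls was not particular to the members. In experiment 1 alone 14 members were higher and 3 lower with JQ1, but only 11 of the 14 and 1 of the 2 called in all libraries were among them. ALDOC, ENO2, VEGFA and PDHA1 were lost, and PFKL, PGK1, HIF1A, GPI and ALDOA were added. With I-BET151 12 were higher and 2 lower in experiment 1 alone, with 8 of the 10 and 1 of the 2 among them. LDHA, VEGFA and PDHA1 were lost there, and PFKL, ENO2, PKM, HIF1A and ALDOA were added. The share of all genes past the threshold in experiment 1 alone is not given here, so these counts have no background beside them. VEGFA with JQ1 thus passed in neither experiment alone (adjusted p = 0.157 in experiment 1 and 0.109 in experiment 2). The difference between the experiments was past the threshold for 0 of 29 members with either inhibitor (interaction term).

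Set against untreated LOUCY in place of DMSO, a comparison chosen after the data had been seen, fewer members stood higher. With JQ1 4 of 29 members were higher and 6 lower (34.9% of all genes passed, 12.9% higher and 22% lower), and with I-BET151 2 were higher and 6 lower (35% of all genes, 13.1% higher and 21.9% lower). The members' medians were -0.0026 with JQ1 and -0.0012 with I-BET151. ANKRD37 was higher by 1.08 with JQ1 (adjusted p = 2.32e-05) and 1.30 with I-BET151 (adjusted p = 2.72e-06), and PFKFB3 by 0.40 with JQ1 (adjusted p = 0.00573) and 0.31 with I-BET151 (adjusted p = 0.0273). ALDOC and HIF1A passed with JQ1. LDHB and PDHA1 were lower with both, with LDHB differences of -0.35 with JQ1 and -0.50 with I-BET151. ALDOA, at 395 ± 23.6 RPKM with JQ1 and 396 ± 73 with I-BET151 against 616 ± 125 in untreated cells, was lower, with differences of -0.62 with JQ1 (adjusted p = 0.000937) and -0.63 with I-BET151 (adjusted p = 0.000783). GPI, phosphoglucose isomerase, PFKP, the platelet-type phosphofructokinase subunit, and HK2 were also lower with both, with log2 differences between -0.55 and -0.33. PFKFB4, VEGFA, TPI1, LDHA, PDK3, PGM1 and BNIP3L, which rose against DMSO with both inhibitors, did not pass against untreated cells. Nor did GAPDH, ENO2, PKM and P4HA1, which rose against DMSO with JQ1, or PGK1, which rose with I-BET151.

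The inhibitors differ in scaffold, a thienotriazolodiazepine in JQ1 and an isoxazole-bearing quinoline in I-BET151, and were given at different doses, 250 nM and 500 nM, so the values stand side by side and dose and compound cannot be told apart. Of 29 members, 0 passed between JQ1 and I-BET151 and 0 had an unadjusted p under 0.05. Of all 11411 genes, limma called 0 (0%) and 531 (4.65%) had an unadjusted p under 0.05. The 95% confidence intervals of the 29 differences lay within -0.58 to 0.57 on the log2 scale, so differences up to that size are not excluded at this number of libraries. GAPDH at 0.26 (adjusted p = 0.964) and ANKRD37 at -0.23 (adjusted p = 0.964) were the members farthest apart in either direction among those past the threshold against DMSO.

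Other genes of the pathways changed in both directions with the inhibitors. Of 33 other glycolysis genes, 6 rose and 10 fell with JQ1 and 6 rose and 8 fell with I-BET151. Of 27 other hypoxia genes, 7 rose and 4 fell with JQ1 and 10 rose and 2 fell with I-BET151. Of all genes 10.1% rose and 15.9% fell with JQ1 and 10.3% rose and 15.9% fell with I-BET151, so the 4 of 27 that fell with JQ1 stood near the background. DDIT4, an inhibitor of mTOR signalling induced by stress and hypoxia, averaged 343 ± 8.72 RPKM with JQ1, 327 ± 39.1 with I-BET151 and 166 ± 11.5 with DMSO. NDRG1 averaged 6.93 ± 0.177 with JQ1, 5.14 ± 0.338 with I-BET151 and 2.94 ± 0.609 with DMSO, and the histone demethylase gene KDM3A averaged 27.2 ± 2.17 with JQ1, 25.6 ± 1.69 with I-BET151 and 19 ± 3.12 with DMSO. These hypoxia-inducible genes rose with both (log2 differences of 0.42 to 1.04). The glucose transporter SLC2A3 rose by 0.47 with JQ1 and 0.41 with I-BET151. RPIA and TKT, enzymes of the non-oxidative pentose phosphate steps, fell with both. RPIA averaged 19.6 ± 3.04 RPKM with JQ1, 19.1 ± 3 with I-BET151 and 46.3 ± 2.94 with DMSO, and TKT averaged 34.5 ± 3.27 with JQ1, 33.3 ± 4.12 with I-BET151 and 50.5 ± 8.59 with DMSO. ENO3, the muscle enolase, averaged 4.21 ± 1.05 with JQ1, 4.02 ± 0.71 with I-BET151 and 11.8 ± 2.03 with DMSO, opposite to ENO2.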

How the data were processed

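RNA-seq libraries of LOUCY and JURKAT were made by Smart-seq2 with Nextera XT, per the labels' protocols, a full-length protocol that does not mark strand. The authors deposited 1 table of RPKM values for all 24 samples. The submitters' processing notes name STAR 2.5.1b, featureCounts, Subread 1.4.5-p1, edgeR 3.10.5 and hg38; the sources give neither the gene annotation nor the gene lengths or filters behind the table. RPKM steps gave back whole reads for 100% of genes (tolerance 0.01 reads), 4381134 to 7074198 per library. Counting error is thus small for most members but not for those near 1 RPKM or with few reads. ANKRD37 had 4 to 32 reads in LOUCY libraries and ALDOC 11 to 29. The library size implied by the RPKM was divided by the reads in listed genes and by the geometric mean of that ratio over libraries. The result ran from 0.8825 in I-BET151 experiment 2 replicate 1 to 1.0909 in I-BET151 experiment 2 replicate 2. The source of that spread was not tested. All 24 columns were matched to samples by title.

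Differences were fitted with limma 3.58.1 (R 4.3.3, mean-variance trend) on log2(RPKM + 1), with an additive experiment term keeping genes that reached 1 RPKM in 4 or more libraries of a fit. The line fit held 12 libraries and 11978 genes, and the LOUCY fit 18 libraries and 11411 genes. Tests were two-sided, with Benjamini-Hochberg adjustment over all genes of the fit and a threshold of 0.05. Paralog shares of summed RPKM were compared by exact permutation tests over libraries, two-sided, adjusted over 32 tests. Libraries were permuted freely over both experiments, so these tests, unlike the limma fits, hold no experiment term. The smallest possible p-values named above are those of this free permutation. GC slopes are regressions of a library's deviation from its group on the GC content of the gene, taken from GENCODE v29 on GRCh38. The fits were tested on simulated data. Replicates within a group and experiment differed by more than sampling noise (chi-square per degree of freedom 1.69 to 54.6), so none were merged. Same-numbered replicates were not treated as pairs, since the correlations of their deviations ran from -0.581 to 0.684 over 42 pairs. The highest, 0.684, was between DMSO and I-BET151 in experiment 2. Where a group has 2 libraries in an experiment their deviations mirror each other, so the 42 values are not independent.

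The members and gene lists were chosen with earlier results of these data known. All 32 members are named, and by rule every library's value, or the range and median in groups of 6, is given for the 6 largest differences past the threshold in each comparison. Values of other members, and the genes outside the list, were chosen after their values were seen. Alternatives covered the pseudocount, the filter, scaling, the experiment term, the replicate block, each experiment alone and each library left out. Voom on recovered reads, removal of a GC trend and untreated LOUCY in place of DMSO were added after seeing the data. One gene outside the 32 is not reported here.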

Additional observations from a re-analysis of the deposited data

Results flagged for a closer look

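In 14 of 160 combinations of a member and a group, 1 library stood apart from the others of its group by Dixon's criterion, which chance alone meets in about 1 of 20. The share of all genes that meet it is not given here, so these counts do not show the members to be unusual. In DMSO replicate 1 of experiment 2, 6 members stood apart. GPI at 48.01 RPKM, ALDOA at 365 RPKM, GAPDH at 2057 RPKM and ENO1 at 800.1 RPKM were low there, and HIF1A at 75.19 RPKM and BNIP3L at 154 RPKM were high. In I-BET151 replicate 1 of experiment 2, PGK1 at 1220 RPKM and LDHA at 1806 RPKM were high and PGM1 at 37.84 RPKM was low. These are the libraries with the steepest GC slopes, -0.299 and -0.331, and the part of the slope in these values was not tested.

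The other libraries gave 5 values. HK2 was low in DMSO replicate 1 of experiment 1 at 12.04 RPKM, and PGK1 was low in DMSO replicate 2 of experiment 2 at 590.8 RPKM. PFKM was high in untreated LOUCY replicate 3 of experiment 2 at 18.96 RPKM. PGK1 was high in untreated LOUCY replicate 2 of experiment 2 at 816.2 RPKM and in JURKAT replicate 2 of experiment 1 at 803.1 RPKM.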

How the results depend on the processing

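Single library removals gave 0 calls between JQ1 and I-BET151, 12 to 67 genes for DMSO against untreated LOUCY, 2295 to 3436 for JQ1, 2410 to 3187 for I-BET151 and 8406 to 8741 between lines; members higher numbered 0 for DMSO, 8 to 15 for JQ1, 7 to 10 for I-BET151 and 16 to 18 between lines, and members lower 1 to 3, 1 to 2, 1 to 2 and 9 to 10. Of the members' values past the threshold (with HIF1A), 765 kept direction and side of the threshold, 103 no longer passed and 2 newly passed. Under other settings these numbers were 495, 87 and 6, and 6 turned direction. The cause of the changes below was not tested beyond what each setting leaves out.

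Without a filter JQ1 raised 9 members and I-BET151 lowered 1. Trimmed mean scaling left 1 lower with I-BET151. Dropping the experiment term gave 13 genes for DMSO and 1 member lower with each inhibitor. Replicate numbers did not pair samples throughout (15 of 42 same-number pairs correlated above 0.1), though DMSO and I-BET151 of experiment 2 did so at 0.684. With a replicate block, DMSO had 4 genes and 0 members lower, and each inhibitor 1 member lower. Experiment 1 alone gave 57 genes and 6 members lower for DMSO, 5 members lower between lines and 1 gene between the inhibitors. In the line fit of either experiment alone PFKFB2, EGLN1 and BNIP3 fell below the filter and were not tested. LDHB was the only member tested there in experiment 1 that lost a lower call. Experiment 2 alone gave 5321 genes between lines, 0 genes and 0 members lower for DMSO, 391 genes with 1 member higher and 0 lower for JQ1, and 456 genes with 2 higher and 0 lower for I-BET151. Without the 3 libraries of steep GC slope, DMSO had 34 genes and 2 members lower, and the inhibitors differed in 1 gene. Voom on recovered reads gave 7 genes for DMSO and 1 member lower with each inhibitor, and moved the median of all genes between lines to -0.12. Its split there was 3789 higher and 4991 lower, trimmed mean scaling gave 4515 and 4251, and the main fit 4256 and 4496. With a GC trend removed, whose p-values are too small because the slopes come from the same data, DMSO had 211 genes and 5 members lower and the inhibitors differed in 1 gene. With untreated LOUCY in place of DMSO, JQ1 had 4 members higher and 6 lower and I-BET151 2 and 6; PFKFB4 turned to -0.29 with JQ1 and -0.12 with I-BET151, VEGFA to -0.021 with JQ1 and TPI1 to -0.0082 with I-BET151. In experiment 2 alone HIF1A was -0.024 with JQ1 and -0.060 with I-BET151. The planned edgeR and DESeq2 count tests were not run; the recovered reads were tested with voom alone. ANKRD37, VEGFA and PFKFB4 lie at 1 to 6 RPKM, where the log2(RPKM + 1) scale understates folds.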
